A study of Mus musculus with 32 samples.

Results

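Of the 20109 gene symbols shared by all 4 deposited tables of this series, 7 are described here: H2-Aa, H2-Ab1, H2-Eb1, Cd74, Ciita, H2-DMa and H2-DMb1, the genes of major histocompatibility complex (MHC) class II antigen presentation. They were chosen by symbol, with earlier results of these data known. All 7 were found in each table, among 22609 genes in the culture and Rag1-/- tables and 25277 genes in the day 4 and day 6 tables. MHC class II molecules display peptides from proteins that a cell has taken up to CD4+ T cells. In mice they are carried by dendritic cells, B cells and macrophages, and many other cell types can be made to express them by interferon gamma.

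The RNA came from E0771, a line of mouse mammary carcinoma cells, in a study of the collagen receptor kinase DDR1 in mammary tumour growth. In culture, 2 Ddr1 knockout (KO) libraries, 3-6 and 3-7 (libraries 1 and 2), were set against 3 Ddr1 wild-type (WT) libraries, E0771-P, EV and Ctrl (libraries 1, 2 and 3). As tumours in Rag1-/- mice, which form no mature T or B cells, 5 KO libraries were set against 5 WT libraries. In C57BL/6 hosts, which have T and B cells and received tumours passed through Rag1-/- mice, 5 KO libraries were set against 4 WT libraries, titled day 4. In further C57BL/6 hosts, titled day 6, 4 tumours given an antibody labelled hDDR1 ECD were set against 4 given IgG. The day 6 labels name no Ddr1 genotype, and the labels give no age and no sex of any host and do not say whether each KO line is 1 clone or whether animals were pooled. Nor do they say that each library had a culture or animal of its own, so the p-values cover no more than the spread of these libraries.

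The 7 genes hold different posts in the pathway. H2-Aa encodes the alpha chain and H2-Ab1 the beta chain of the I-A molecule, and H2-Eb1 encodes the beta chain of the I-E molecule. C57BL/6 mice carry the b haplotype, which makes no I-E alpha chain, so H2-Eb1 transcripts there do not report surface I-E. Cd74 encodes the invariant chain, which fills the peptide groove during transport. H2-DMa and H2-DMb1 encode the H2-M molecule, which exchanges the last piece of the invariant chain for peptide. Ciita encodes the coactivator that switches on the genes of this pathway from promoter elements called the X and Y boxes.

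The X and Y boxes are short enough to be read in the sequence, so the 3 promoters in which one was found are shown to place the letters through which CIITA acts. RefSeq promoter windows on GRCm38.p6 were matched for 4 of the 7 genes, H2-Aa, H2-Eb1, H2-DMa and H2-DMb1, and the 250 bases before the start site are printed 5′ to 3′ on the strand of the gene. Capitals mark exact matches to the X box letters AACNGATG or the Y box letters CTGATTGG, searched on both strands.
H2-Eb1, plus strand, chr17:34305617-34305866: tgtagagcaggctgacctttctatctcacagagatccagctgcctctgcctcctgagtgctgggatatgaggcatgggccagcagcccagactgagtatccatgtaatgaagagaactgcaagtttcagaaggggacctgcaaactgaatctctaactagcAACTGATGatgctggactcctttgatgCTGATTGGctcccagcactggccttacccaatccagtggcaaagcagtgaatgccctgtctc
H2-DMb1, plus strand, chr17:34152941-34153190: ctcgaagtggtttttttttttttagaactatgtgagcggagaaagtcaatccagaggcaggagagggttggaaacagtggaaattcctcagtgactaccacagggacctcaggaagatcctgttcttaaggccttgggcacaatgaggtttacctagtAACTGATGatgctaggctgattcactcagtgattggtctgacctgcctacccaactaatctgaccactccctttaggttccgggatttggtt
H2-Aa, minus strand, chr17:34287824-34288073: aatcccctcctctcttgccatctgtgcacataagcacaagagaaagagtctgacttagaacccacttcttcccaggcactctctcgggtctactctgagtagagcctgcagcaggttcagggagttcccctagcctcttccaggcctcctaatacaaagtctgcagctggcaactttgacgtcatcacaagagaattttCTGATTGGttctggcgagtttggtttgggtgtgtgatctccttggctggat

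H2-Eb1 held an X box starting 89 bases and a Y box starting 62 bases before its start site. H2-DMb1 held an X box 92 bases before its RefSeq start, and H2-Aa a Y box 51 bases before its start. The H2-DMb1 window ends at 34153190, whereas the GENCODE M21 annotation begins the gene at 34153072. By that annotation this X box lies inside the gene. Neither set of letters was found in the 2 windows of H2-DMa. The exact Y box letters were not found in H2-DMb1, nor the exact X box letters in H2-Aa. Each absence says only that these letters are not there, since boxes with a changed letter were not searched for. Of 32851 promoter windows of the same table, 2.32% held the X box, 4.10% the Y box and 0.0944% both. In H2-Eb1 the 2 matches did not overlap.

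On GRCm38, the same build as mm10, 5 of the genes lie close together on chromosome 17: H2-DMa at 34119541 to 34139101, H2-DMb1 at 34153072 to 34160230, H2-Ab1 at 34257689 to 34269419, H2-Aa at 34282744 to 34287823 and H2-Eb1 at 34305867 to 34316674. Ddr1 lies on the same chromosome at 35681567 to 35704621. Ciita lies on chromosome 16 at 10480059 to 10528418, and Cd74 on chromosome 18 at 60803848 to 60812652. H2-DMa shares 10.4% of its exon bases with Brd2 on the opposite strand, and Ciita shares 3.45% with Dexi. Since the sources used here do not say whether strand was used in counting, reads of H2-DMa and, less widely, Ciita are uncertain. In reads per 1000000 reads of the library (RPM), Brd2 averaged between 369.6 and 448 in all 8 groups, above H2-DMa in every group.

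The libraries of Rag1-/- hosts held 18967300 to 25516204 reads, those of day 4 20148955 to 28600639, those of day 6 20220028 to 39732635 and the cultures 29270919 to 37425032. Ddr1 checked the labels: it averaged 22.8 RPM in KO and 188 RPM in WT cultures, 36.7 RPM in KO and 181 RPM in WT tumours of Rag1-/- hosts, and ranged over 27.9 to 49.7 RPM in KO and 132 to 175 RPM in WT tumours at day 4, with no overlap in any of these tables. At day 6 it was low in both groups, at 22.1 RPM with antibody and 18.6 RPM with IgG. The leukocyte markers Ptprc, Coro1a and Laptm5 summed to 0.413 to 0.673 RPM in KO and 0.454 to 1.30 RPM in WT cultures, and to 193 RPM or more in every tumour library. Cd3e, a T cell receptor subunit, reached at most 0.0524 RPM in KO tumours of Rag1-/- hosts, where it had 0 reads in all 5 WT libraries, and ranged at day 6 over 2.47 to 39.7 RPM with antibody and 1.27 to 21.98 RPM with IgG.

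In cultured E0771 cells the chain genes and Ciita were at the edge of detection, while H2-DMb1 was plainly present. H2-DMa also had reads in every culture, under the uncertainty given above for its overlap with Brd2. H2-Aa had 3 and 0 reads in the KO libraries, against 6, 4 and 5 reads in the WT libraries. H2-Ab1 had 0 reads in both KO libraries and 3, 0 and 0 reads in the WT libraries. A count of 0 in these libraries allows up to 0.0917 RPM, taking 3 reads as the limit, and such limits cover counting error only. H2-Eb1 had 1 read over both KO libraries and 2 reads over the 3 WT libraries, so neither beta chain gene was measurable in culture at this depth.

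H2-DMa stood at 19.8 and 15.7 RPM in KO cultures, against 28.6, 23.7 and 19.7 RPM in WT cultures. H2-DMb1 stood at 13.7 and 15.2 RPM in KO cultures, against 22.9, 17.1 and 17.3 RPM in WT cultures. Thus the H2-M genes made up 99.6% and 100% of the summed RPM of the 3 chain genes and the 2 H2-M genes in KO cultures, and 99.3% to 99.7% in WT cultures. The H2-DMa part of this share carries the same uncertainty. In tumours the same share was 8.38% to 17.1% in KO and 8.49% to 11.2% in WT libraries of Rag1-/- hosts, 8.76% to 23.6% in KO and 10.7% to 22.7% in WT libraries at day 4, and 6.17% to 13.4% with antibody and 7.28% to 12.1% with IgG at day 6. The tables were normalized separately, and levels set across them are RPM from recovered whole reads.

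**Figure D1:**
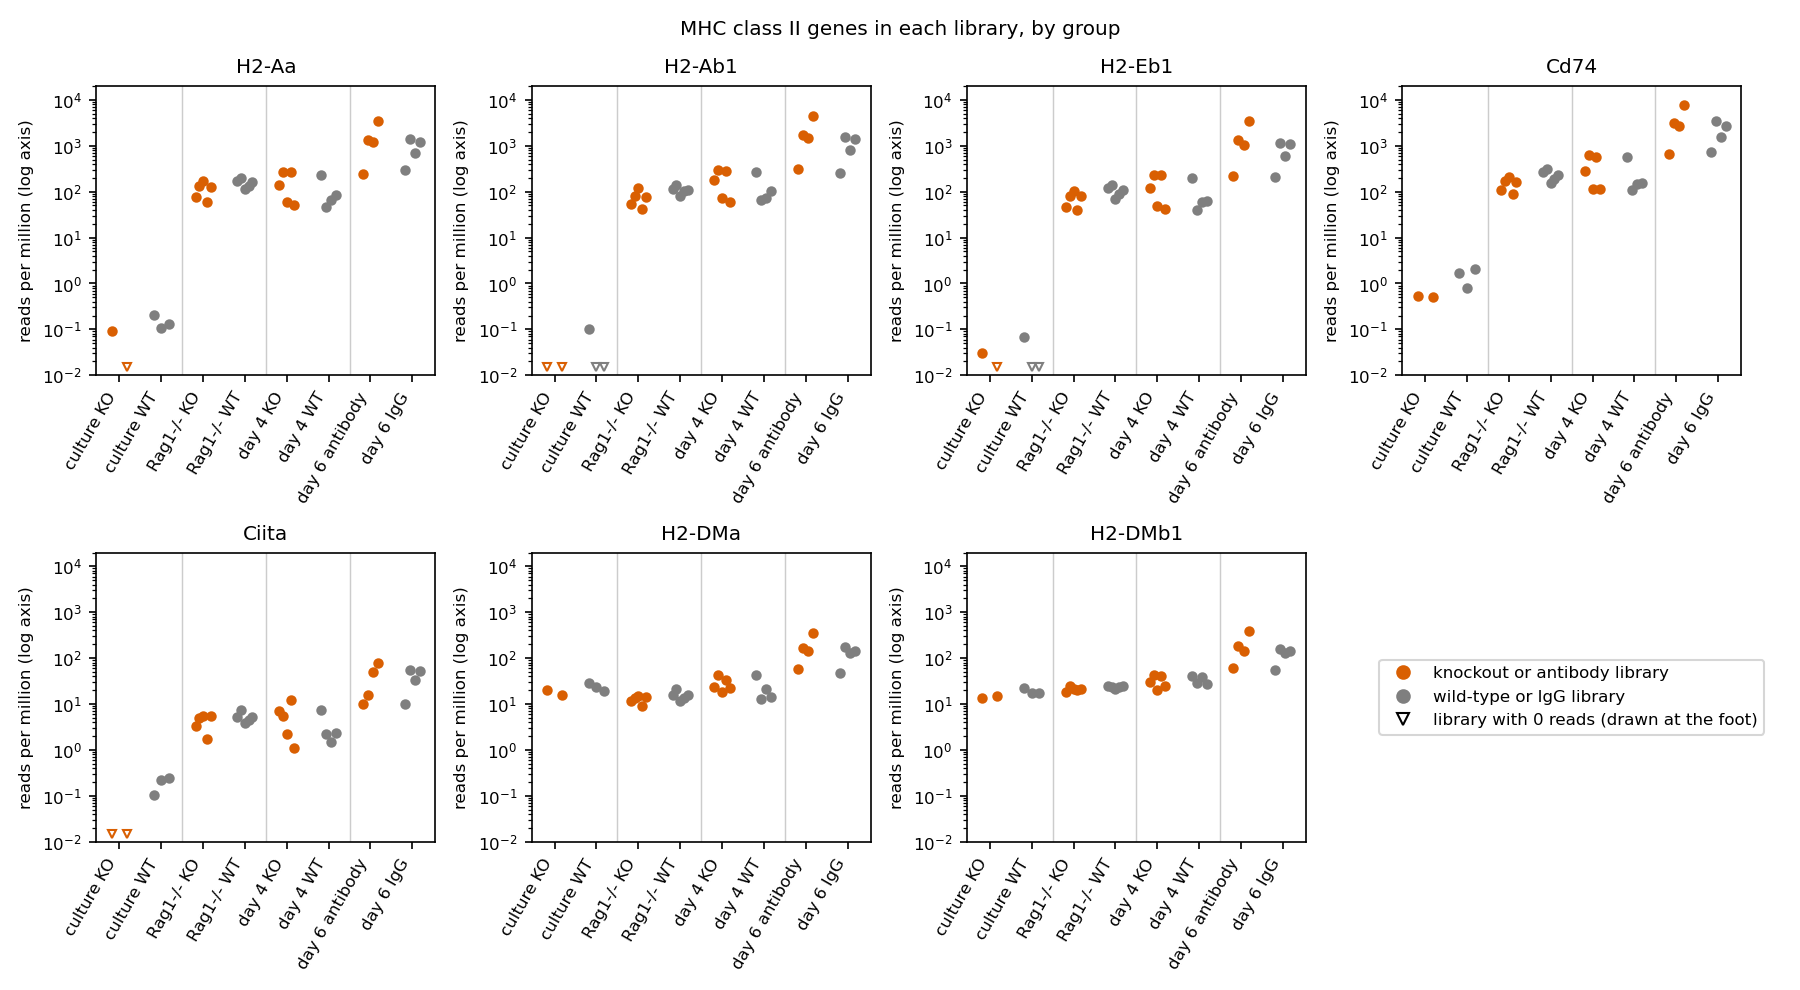
RPM of each gene (log axis) in every library of the 8 groups, with KO or antibody libraries in orange left of WT or IgG libraries in grey and libraries without reads as open triangles at the foot. The chain genes, Cd74 and Ciita are at or below 2.06 RPM in culture and each is higher in every tumour library than in any culture, while the values of H2-DMa and H2-DMb1 in culture overlap those in Rag1-/- hosts.

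In tumours every one of the 7 genes was detected in every library. Ranked by mean RPM from low to high, the chain genes, Cd74 and Ciita had the cultures first, then the groups of Rag1-/- hosts and day 4 intermixed, then day 6. Cd74 averaged 0.508 RPM in KO and 1.53 RPM in WT cultures, 148 RPM in KO and 229 RPM in WT tumours of Rag1-/- hosts, 337 RPM in KO and 240.4 RPM in WT tumours at day 4, and 3616 RPM with antibody and 2097 RPM with IgG at day 6. Neighbouring groups among the 4 of Rag1-/- hosts and day 4 overlapped in range for all 7 genes, and so did both day 6 groups. Between day 4 KO tumours, the highest of those 4 by mean, and day 6 IgG tumours, the ranges did not overlap for H2-Aa (52.1 to 270 RPM and 293 to 1388 RPM) or Cd74, but did for H2-Ab1, H2-Eb1 and Ciita.

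Of the H2-M genes, H2-DMb1 also had the cultures first and day 6 last by mean, while H2-DMa followed another order. H2-DMa had its lowest mean in KO tumours of Rag1-/- hosts, at 8.91 to 14.7 RPM, below the 15.7 to 19.8 RPM of KO cultures, while WT tumours of Rag1-/- hosts spanned 11.9 to 21.0 RPM. H2-DMb1 averaged 14.5 RPM in KO and 19.1 RPM in WT cultures, 21.3 RPM in KO and 23.8 RPM in WT tumours of Rag1-/- hosts, and 32.1 RPM in KO and 34.2 RPM in WT tumours at day 4. Only at day 6 did both stand apart from all other groups, H2-DMb1 at 61.1 to 393 RPM with antibody and 55.3 to 161 RPM with IgG. In bulk tumour RNA, more cells of a type and more RNA of a gene per cell cannot be told apart.

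Per length of exon sequence, Cd74 led in each of the 6 tumour groups. In KO tumours of Rag1-/- hosts it averaged 88.1 RPM per kilobase (RPKM), followed by H2-Eb1 at 36.3, H2-Aa at 29.7 and H2-Ab1 at 29.0 RPKM. H2-DMb1 followed at 12.6 RPKM, H2-DMa at 3.67 RPKM and Ciita at 0.436 RPKM. At day 6 with antibody the same order of blocks held. Cd74 was at 2154 RPKM, H2-Eb1 at 788, H2-Ab1 at 765, H2-Aa at 417, H2-DMb1 at 117, H2-DMa at 53.0 and Ciita at 4.03 RPKM. The lengths merge all annotated exons of a gene, at 3798 bases for H2-Aa, 2568 for H2-Ab1 and 1944 for H2-Eb1. The order of the chain genes depends on these lengths. In RPM, KO tumours of Rag1-/- hosts had H2-Aa at 113, H2-Ab1 at 74.4 and H2-Eb1 at 70.5.

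For the KO and WT cultures, 3 of the 7 genes passed the filter of a mean of 10 normalized counts, and limma called none of these 3 changed at a Benjamini-Hochberg adjusted p under 0.05, in a table where 0.327% of 11911 tested genes were called. Cd74 had 17.8 and 17.4 normalized counts in KO cultures, against 58.6, 27.8 and 69.4 in WT cultures. Both KO libraries lay below all 3 WT libraries, which 17.7% of tested genes also did. On the log2(normalized count + 1) scale Cd74 was at −1.41 (SE 0.48, limma adjusted p = 0.190). H2-DMb1 was also without overlap and stood at −0.36 (SE 0.18, limma adjusted p = 0.328), and H2-DMa, with overlap, at −0.40 (SE 0.19, limma adjusted p = 0.322). Of these 3, Cd74 alone had an unadjusted p under 0.05, and edgeR and DESeq2 on recovered reads called 0.

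Ciita had 0 reads in both KO cultures, against 3, 8 and 9 reads in the WT cultures. With 3 reads taken as the limit over the KO group, the pooled WT level of Ciita was 4.44 times that limit. That figure takes the WT reads as they stand and leaves out the spread between cultures. WT culture 1, at 0.102 RPM, was close to the 0.0917 RPM that 0 reads allow in KO culture 1. The mean of Ciita was below the filter and it was not tested. In the authors' deposited table its adjusted p was 0.538 and its unadjusted p 0.0725. Of the 19 matched genes on a list of other class II pathway genes (proteases, other H2 genes, the RFX and NF-Y factors that bind the X and Y boxes, and costimulatory genes), 12 were tested and 0 called. Of 8 interferon gamma pathway genes, 7 were tested and 0 called.

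In tumours of Rag1-/- hosts, Cd74 and H2-Ab1 fell in KO tumours, and all 7 genes were below 0 in log2 change. These 2 of 7 genes called lower stand beside 11.4% of 12795 tested genes called lower in this table. The median log2 change over the 7 genes was −0.57, against −0.00347 over all tested genes, 50.7% of which lay below 0. The ranges of KO and WT tumours overlapped for all 7 genes, whereas 7.14% of tested genes were lower without overlap.

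Cd74, for the invariant chain, had 2246, 3502, 4346, 1907 and 3429 normalized counts in KO tumours 1 to 5, against 5590.1, 6565, 3333, 4183 and 4842 in WT tumours 1 to 5. KO tumours 4 and 1 were the lowest of all 10, and only KO tumours 2, 3 and 5 exceeded the lowest WT tumour, number 3. The means were 3086 ± 997 in KO and 4902 ± 1247 in WT tumours (SD, n = 5 each), a log2 change of −0.69 (SE 0.21, 95% interval −1.15 to −0.24, limma adjusted p = 0.0313).

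H2-Ab1, for the I-A beta chain, had 1141, 1710.3, 2427, 859.6 and 1625 normalized counts in KO tumours 1 to 5, against 2455, 3014, 1709, 2198 and 2257 in WT tumours 1 to 5. KO tumour 3 exceeded WT tumours 3, 4 and 5, KO tumour 2 lay just above WT tumour 3, and KO tumours 4 and 1 were again lowest. The means were 1553 ± 601 in KO and 2327 ± 472 in WT tumours (SD, n = 5 each), a log2 change of −0.65 (SE 0.22, 95% interval −1.13 to −0.17, limma adjusted p = 0.0496).

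H2-Aa, for the I-A alpha chain, had 1645, 2749, 3506, 1236 and 2633 normalized counts in KO tumours 1 to 5, against 3687, 4191, 2449, 2920.0 and 3385 in WT tumours 1 to 5. H2-Eb1, for the I-E beta chain, had 981, 1691, 2169, 841 and 1677 in KO tumours, against 2572, 3064, 1530.0, 1908 and 2269 in WT tumours. In both genes KO tumours 4 and 1 were lowest and KO tumours 2, 3 and 5 lay inside the WT range. Their log2 changes were close to those of the called genes, at −0.57 (SE 0.23, limma adjusted p = 0.0933) for H2-Aa and −0.67 (SE 0.24, limma adjusted p = 0.0578) for H2-Eb1, but did not pass the threshold.

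The H2-M genes and Ciita also missed the threshold. H2-DMa averaged 264 ± 49.0 normalized counts in KO and 333 ± 73.7 in WT tumours (log2 change −0.33, limma adjusted p = 0.144), and H2-DMb1 444 ± 54.9 in KO and 509 ± 28.1 in WT tumours (log2 change −0.20, limma adjusted p = 0.0965; SD, n = 5 each). Ciita had 68.9, 104, 111, 35.6 and 113 normalized counts in KO tumours 1 to 5, against 114, 159.6, 85.4, 95.8 and 107 in WT tumours 1 to 5. KO tumours 4 and 1 had the fewest, and the other 3 KO tumours lay inside the WT range (log2 change −0.45, SE 0.28, limma adjusted p = 0.266).

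**Figure D2:**
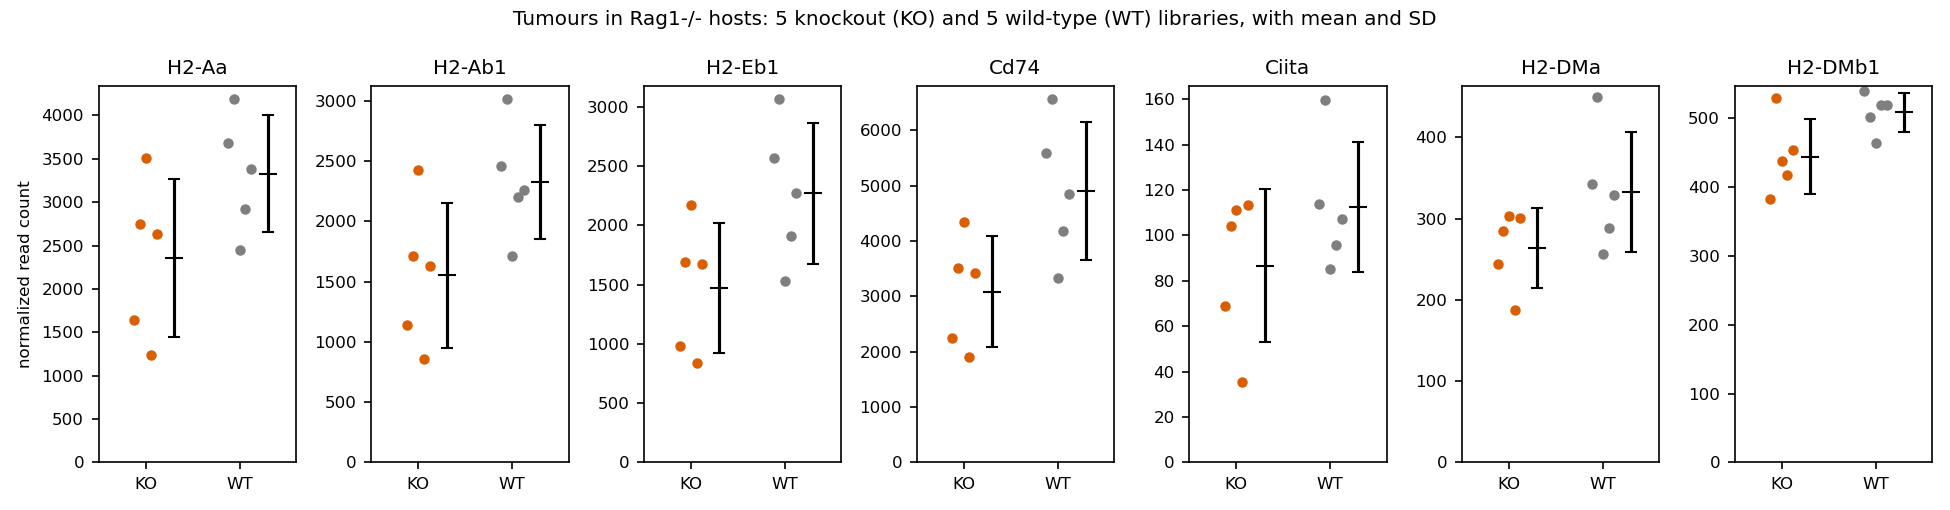
Normalized read counts of the 7 genes in 5 KO (left) and 5 WT (right) tumours of Rag1-/- hosts, with the mean and SD beside the points and each axis starting at 0. For Cd74 the means are 3086 in KO and 4902 in WT tumours, and in every panel some KO tumours lie within the WT range.

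Both calls stood close to the threshold. The Cd74 call was lost without KO tumour 1 (adjusted p = 0.0724), KO tumour 4 (0.0812), or WT tumour 1 (0.0741), 2 (0.0863) or 5 (0.0505), all with limma, and H2-Ab1 was lost without any 1 of 8 tumours. In the authors' deposited table the adjusted p was 0.0592 for Cd74 and 0.107 for H2-Ab1.

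The other pathway genes did not share one direction. Of the 19 tested genes on the other class II pathway list, 1 was called higher and 1 lower. Over all 12795 tested genes, 11.3% were called higher and 11.4% lower. Cd40, a receptor through which T cells activate presenting cells, rose to 1048 ± 158 normalized counts in KO tumours, against 854 ± 77.6 in WT tumours (SD, n = 5 each; log2 change 0.29, limma adjusted p = 0.0371). H2-DMb2, the close relative and neighbour of H2-DMb1, fell to 8.41 ± 2.39 in KO tumours, against 21.1 ± 10.1 in WT tumours (SD, n = 5 each; log2 change −1.12, limma adjusted p = 0.0495), at few reads that could be split between the 2 copies. Ctsl, a lysosomal protease, was the third by p, at log2 change 0.15 (limma adjusted p = 0.155).

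Of the genes for the interferon gamma receptor, neither was called, with Ifngr1 at a log2 change of −0.11 (limma adjusted p = 0.152) and Ifngr2 at 0.11 (limma adjusted p = 0.265). Ifng itself averaged 0.251 RPM in KO and 0.222 RPM in WT tumours and was below the filter.

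Of the leukocyte markers Ptprc, Coro1a and Laptm5, none was called between KO and WT tumours of Rag1-/- hosts by limma, while 2 macrophage and monocyte markers were. The part of either list in the class II result was not tested. The leukocyte sum was 199.9 to 263 RPM in KO and 217 to 262 RPM in WT tumours, with Ptprc, the pan-leukocyte gene for CD45, at a log2 change of 0.03 (limma adjusted p = 0.794). The 10 macrophage and monocyte markers summed to 799 to 1214 RPM in KO and 843 to 1017 RPM in WT tumours. Within that list Mrc1, the mannose receptor of macrophages, rose to 1877 ± 316 normalized counts in KO tumours, against 1204 ± 230 in WT tumours (SD, n = 5 each; log2 change 0.64, limma adjusted p = 0.00399). Ly6c2, a marker of inflammatory monocytes, fell to 384 ± 153 in KO tumours, against 571 ± 67.6 in WT tumours (SD, n = 5 each; log2 change −0.65, limma adjusted p = 0.0315). The 10 dendritic cell markers summed to 38.2 to 52.3 RPM in KO and 42.8 to 53.4 RPM in WT tumours, with 0 of 6 tested genes called.

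At day 4 in C57BL/6 hosts, none of the 7 genes was called between KO and WT tumours by limma, nor by edgeR or DESeq2, and none had an unadjusted p under 0.05; 0.0354% of 14105 tested genes were called by limma. The log2 change was above 0 for 6 genes and below 0 for H2-DMb1. The spread inside each group was wide: the highest KO tumour had 5.17 times the Cd74 of the lowest, and the highest WT tumour 5.00 times, against 2.28 times in KO and 1.97 times in WT tumours of Rag1-/- hosts.

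Cd74 had 6006, 13715, 2711, 12749.6 and 2652 normalized counts in KO tumours 1 to 5, against 12952, 2592, 3485 and 3614 in WT tumours 1 to 4. H2-Ab1 had 3888, 6672, 1692, 6626 and 1404 in KO tumours, against 6207, 1545, 1761 and 2432 in WT tumours. KO tumours 2 and 4 and WT tumour 1 formed the high end for both genes, and the groups overlapped almost wholly. The log2 change was 0.40 (SE 0.62, 95% interval −0.98 to 1.77, limma adjusted p = 0.793) for Cd74 and 0.39 (SE 0.56, 95% interval −0.86 to 1.64, limma adjusted p = 0.770) for H2-Ab1.

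Ciita had 156, 119, 53.1, 275 and 26.7 normalized counts in KO tumours 1 to 5, against 174, 54.6, 36.0 and 53.9 in WT tumours 1 to 4 (log2 change 0.51, SE 0.67, limma adjusted p = 0.751). KO tumour 4 and WT tumour 1 were high here too, but KO tumour 2, first for Cd74, was the third among KO tumours for Ciita. H2-DMb1, at 667, 934, 479, 951 and 602 in KO tumours and 968, 701, 920.3 and 655 in WT tumours, varied less (log2 change −0.19, SE 0.22, limma adjusted p = 0.724). H2-Aa at 0.45, H2-Eb1 at 0.42 and H2-DMa at 0.36 had limma adjusted p-values of 0.749, 0.769 and 0.662.

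The same tumours were high in leukocyte, macrophage and fibroblast markers, whose part in this spread was not tested. The leukocyte markers summed to 449, 448, 193, 544 and 259 RPM in KO tumours 1 to 5, against 483, 208, 206 and 299.6 RPM in WT tumours 1 to 4. The macrophage and monocyte markers summed to 2346, 2778, 1077, 3371 and 1646 RPM in KO tumours, against 3319.6, 1219.9, 1248 and 1377 RPM in WT tumours. KO tumours 2 and 4 and WT tumour 1 were thus at the high end of the macrophage markers as of the class II genes. The fibroblast markers summed to 5776, 4220, 2022, 5556 and 1897 RPM in KO tumours, against 4119, 1715, 1334 and 1852 RPM in WT tumours. Those 3 tumours were high here too, with KO tumour 1 the highest. Endothelial markers differed: their sum in WT tumour 1, 58.7 RPM, was the lowest of the 9 tumours. Of the 20 other class II pathway genes tested 0 were called, the smallest p being that of Nfyb, a subunit of the Y box factor NF-Y, at 879.8 ± 62.4 normalized counts in KO and 1188 ± 90.3 in WT tumours (SD, n = 5 and 4; limma adjusted p = 0.141). Of 7 interferon gamma pathway genes tested 0 were called.

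The KO effects in the 2 kinds of host were set against each other gene by gene, as day 4 minus Rag1-/- hosts, which also differ in table and in the passage of the tumour. None of the 7 differences was called by the test built on limma's estimates, nor had an unadjusted p under 0.05, where 2.99% of 11247 genes were called. The difference was 1.09 (SE 0.65, 95% interval −0.33 to 2.51, limma-based adjusted p = 0.388) for Cd74 and 1.04 (SE 0.60, 95% interval −0.26 to 2.35, limma-based adjusted p = 0.369) for H2-Ab1. For H2-DMb1 it was 0.02 (SE 0.24, 95% interval −0.50 to 0.53, limma-based adjusted p = 0.982). The negative changes in Rag1-/- hosts and the positive ones at day 4 were thus not shown to differ.

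**Figure D3:**
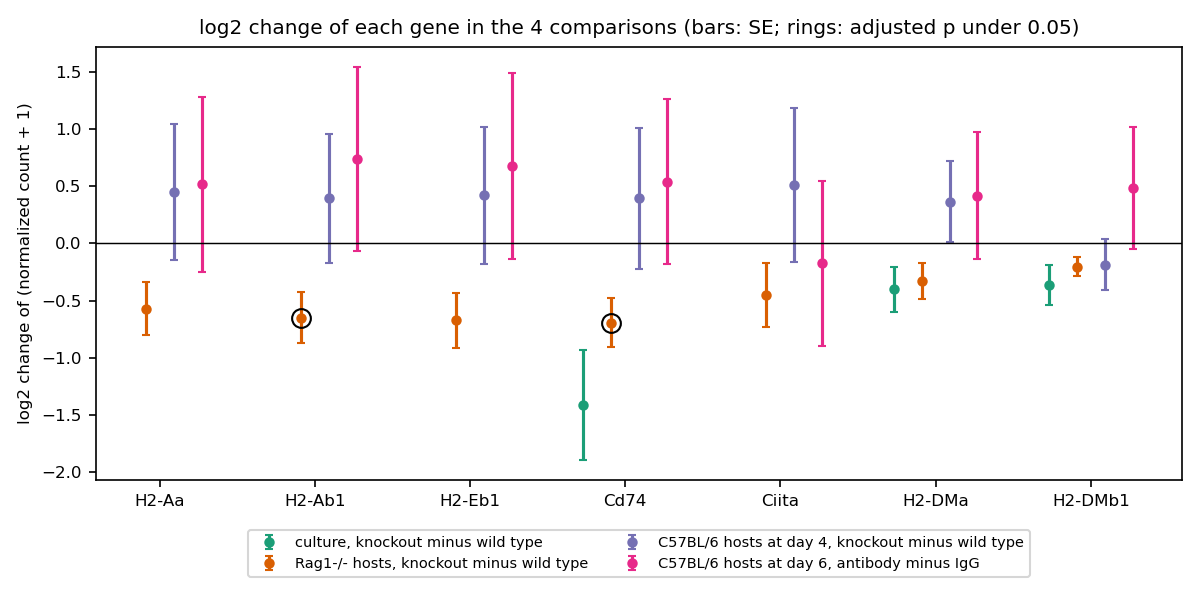
log2 change of each of the 7 genes with its SE in culture, Rag1-/- hosts and C57BL/6 hosts at day 4 (KO minus WT) and at day 6 (antibody minus IgG), with rings around the changes called by limma. The rings mark only Cd74 at −0.69 and H2-Ab1 at −0.65 in Rag1-/- hosts, and the bars at day 4 and day 6 are wider than those of Rag1-/- hosts for every gene.

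At day 6, no member was called between antibody-treated and IgG-treated tumours by limma, edgeR or DESeq2, and none had an unadjusted p under 0.05. In this table limma called 0% of 14155 tested genes, with 1218 at an unadjusted p under 0.05, while edgeR called 0 and DESeq2 166. The mean levels were the highest of the series in both groups, and the Cd74 of the highest antibody-treated tumour was 11.7 times that of the lowest, against 4.83 times with IgG.

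Cd74 had 20241, 97481, 77566.5 and 235951 normalized counts in antibody-treated tumours 1 to 4, against 21564, 104088, 46311 and 77629 in IgG-treated tumours 1 to 4. Antibody-treated tumour 4 stood above all others, and tumour 1 of each group lay lowest. The log2 change was 0.54 (SE 0.72, 95% interval −1.08 to 2.16, limma adjusted p = 0.758). H2-Ab1 had 9103, 51638, 41746 and 131668 with antibody, against 7513, 46690.1, 23577 and 40264 with IgG, in the same order within the antibody group (log2 change 0.74, SE 0.81, 95% interval −1.08 to 2.55, limma adjusted p = 0.700).

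H2-DMb1 had 1828, 5685, 4104 and 11778 normalized counts with antibody, against 1665, 4903, 3891 and 4166 with IgG (log2 change 0.48, SE 0.53, limma adjusted p = 0.705). H2-Aa at 0.52, H2-Eb1 at 0.68 and H2-DMa at 0.42 had limma adjusted p-values of 0.786, 0.729 and 0.758. Without antibody-treated tumour 4 the log2 changes were −0.05 for H2-Aa, −0.01 for H2-DMa and 0.01 for Cd74.

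Ciita was out of step with Cd74 in 1 tumour. It had 293, 481, 1405 and 2365 normalized counts with antibody, against 297, 1649.95, 1012 and 1539 with IgG (log2 change −0.18, SE 0.73, limma adjusted p = 0.934). Antibody-treated tumour 2, second for Cd74 in its group, was the third for Ciita. Per 1000 Cd74 reads, Ciita had 14.5, 4.93, 18.1 and 10.02 reads in antibody-treated tumours 1 to 4, against 13.8, 15.9, 21.9 and 19.8 in IgG-treated tumours 1 to 4. The value of 4.93 was the lowest of all 27 tumours, the next being 8.65 in KO tumour 2 at day 4.

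Leukocyte, macrophage, dendritic cell, T cell, B cell and epithelial markers were also highest in antibody-treated tumour 4. Their part in the class II values was not tested. Its leukocyte sum was 1652 RPM, against 393 to 927 RPM in the IgG group and 349.6 to 745 RPM in the other 3 antibody-treated tumours. Its macrophage and monocyte sum was 9732 RPM, against 2776 to 5300 RPM with IgG and 2306 to 4483 RPM in those other 3. Its dendritic cell sum was 283 RPM, against 42.3 to 163 RPM with IgG and 39.0 to 157 RPM in those other 3. The 5 T cell markers summed to 16.6, 41.2, 70.2 and 289.8 RPM with antibody, against 13.5, 119, 103 and 86.3 RPM with IgG. The 6 B cell markers summed to 14.3, 19.1, 28.5 and 67.0 RPM with antibody, against 12.7, 31.2, 19.0 and 26.6 RPM with IgG. Tumour 1 of each group was the lowest of its group in both the T cell and the B cell sum. Cd22, averaging 20.6 RPM with antibody and 12.4 RPM with IgG, was the most abundant of the B cell markers. Fibroblast markers did not follow: they summed to 1414, 1030.04, 1799 and 1058 RPM with antibody, against 1329, 1614, 1388 and 1860.1 RPM with IgG. Of the 20 other class II pathway and 8 interferon gamma pathway genes, all tested, 0 were called; Rfx5, a subunit of the X box factor, was at −0.35 (limma adjusted p = 0.517) and Jak2, a kinase of the interferon gamma receptor, at −0.43 (limma adjusted p = 0.521), the smallest p of each list. Ifng averaged 4.31 RPM with antibody and 4.65 RPM with IgG.

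**Figure D4:**
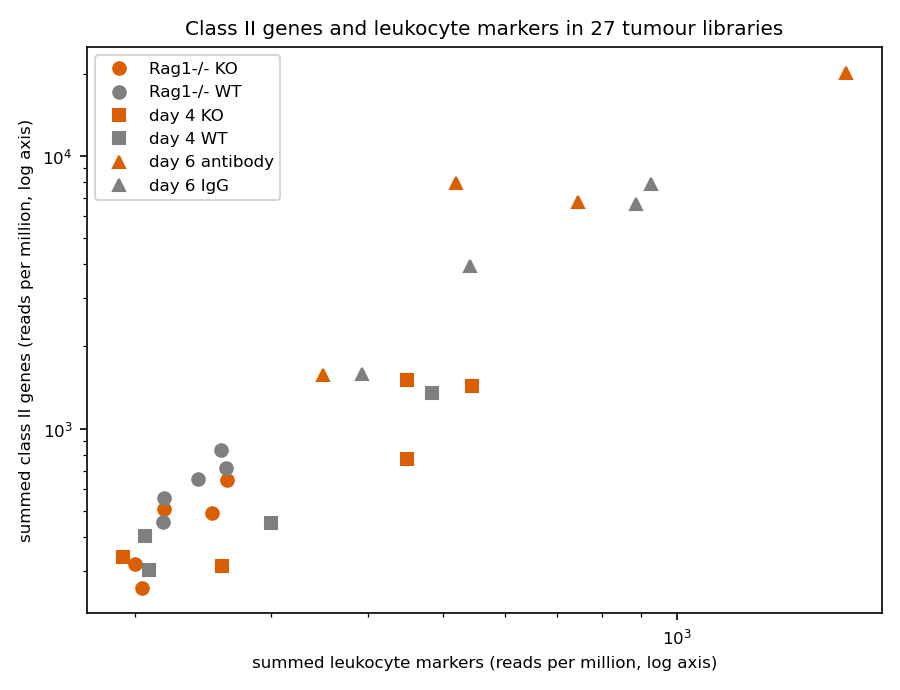
Summed RPM of the 7 class II genes against summed RPM of the leukocyte markers Ptprc, Coro1a and Laptm5 in the 27 tumours, both on log axes, with KO or antibody in orange and WT or IgG in grey. The points run from 261 RPM of class II in KO tumour 4 of Rag1-/- hosts to 20160.4 RPM in antibody-treated tumour 4 at day 6. Antibody-treated tumour 4 is the highest on both axes, while tumours of different tables at a like leukocyte sum can lie far apart, as KO tumour 4 at day 4 (544 and 1428 RPM) and antibody-treated tumour 2 at day 6 (519 and 7938 RPM).

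The 7 genes varied together from tumour to tumour. With the mean of its own group taken off the log2 RPM of each of the 27 tumours, the 3 chain genes and Cd74 had pairwise Pearson correlations between 0.985 and 0.997. Ciita followed less closely, at 0.878 with Cd74 and 0.725 with H2-DMb1. H2-DMb1 was close to Cd74 at day 6 (r = 0.978 over 8 tumours) and day 4 (0.885 over 9 tumours) but less so in Rag1-/- hosts (0.619 over 10 tumours), where its range was narrow. These correlations are descriptions: the genes are read from the same libraries at the same depth.

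Among 9730 genes with a mean of 50 or more normalized counts in the tumour tables, the 10 most like the mean of the 7 by the same measure over 27 tumours were Dok2 (r = 0.980), Gm2a (0.968), H2-T23 (0.963), Ptpn18 (0.951), Coro1a, Unc93b1, Arl5c, Plbd1, Ly86 and Sash3 (0.935). Dok2 encodes an adaptor protein of blood cells, Gm2a a lysosomal lipid-binding protein, H2-T23 the nonclassical class I molecule Qa-1 and Coro1a an actin-binding protein of leukocytes. Unc93b1 carries nucleic-acid-sensing Toll-like receptors to endosomes, and Ly86 encodes MD-1, a partner of a Toll-like receptor relative on presenting cells. In Rag1-/- hosts alone, Dok2 had r = 0.940, Gm2a 0.955 and Arl5c 0.617.

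By the same measure, the summed markers of dendritic cells had r = 0.948 with the class II mean, those of leukocytes 0.924, T cells 0.915, macrophages and monocytes 0.907 and B cells 0.811 over 27 tumours. Each sum is weighted to its most abundant genes. In Rag1-/- hosts Itgax, averaging 33.7 RPM in KO and 34.9 RPM in WT tumours, made up most of the dendritic cell sum. Cd22, averaging 7.35 RPM in KO and 8.40 RPM in WT tumours there, made up most of the B cell sum. In those hosts r was 0.635 for the dendritic cell sum and 0.407 for the B cell sum. The pooled values of the other lists hid differences between tables. Fibroblast markers were at 0.543 over all 27 tumours, but at 0.807 in Rag1-/- hosts and 0.907 at day 4, near the 0.852 and 0.929 of the leukocyte markers, and at −0.0635 at day 6. The epithelial and tumour cell markers were at 0.0457 over all, with −0.402 in Rag1-/- hosts, −0.358 at day 4 and 0.328 at day 6. Endothelial markers were at 0.0434 over all, with −0.469 in Rag1-/- hosts, 0.0327 at day 4 and 0.197 at day 6. The T cell value came from C57BL/6 hosts, at 0.976 at day 4 and 0.949 at day 6, and was 0.322 in Rag1-/- hosts, where Cd4, averaging 7.06 RPM in KO and 6.35 RPM in WT tumours, made up nearly all of that sum. Of the class II transcription factors, Rfx5 was at 0.262, Rfxank at 0.371, Rfxap at 0.236 and Creb1 at −0.199. The NF-Y subunits differed, with Nfya and Nfyb at −0.31 and Nfyc at 0.627. The proteases differed too, with Ctss, which trims the invariant chain, at 0.905, Lgmn at 0.713 and Ctsl at −0.0964.

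**Figure D5:**
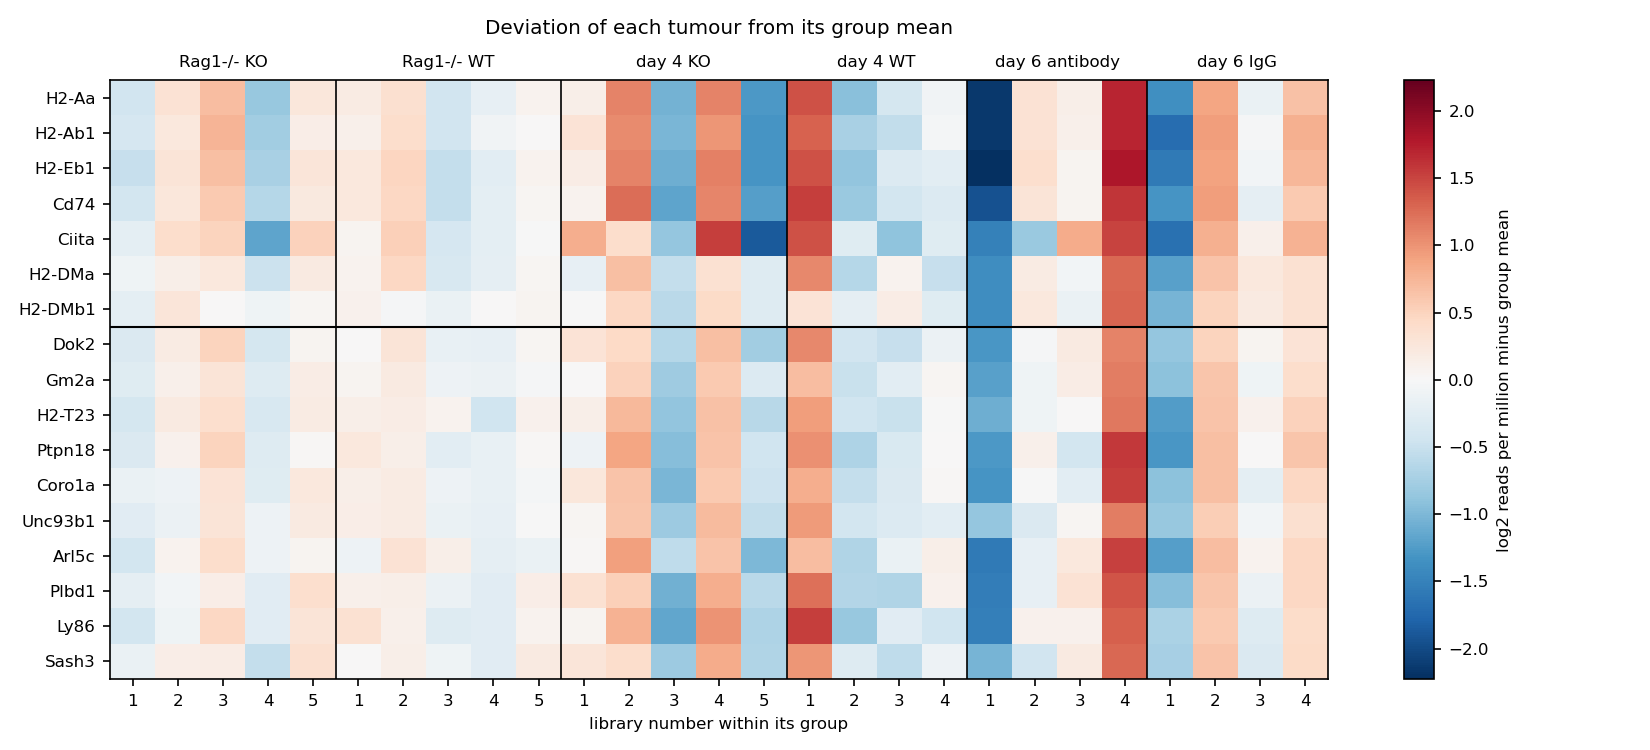
Deviation of log2 RPM from the mean of its own group in each of the 27 tumours, for the 7 class II genes (above the line) and the 10 genes most like them (below it). KO tumours 2 and 4 and WT tumour 1 at day 4 and antibody-treated tumour 4 at day 6 are high in nearly every row, and H2-DMb1 is nearly flat in Rag1-/- hosts.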

How the data were processed

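RNA-seq tables for 32 libraries in 8 groups, assigned by titles and characteristics, were used as deposited. Libraries followed an Illumina TruSeq stranded mRNA guide, per the labels' protocols. CASAVA, TopHat, DESeq2 and mm10 are listed, per the submitters' processing notes, with no versions; for the counter and annotation, the sources used here name none. The values the authors deposited are a signal unit, normalized counts that scale each library's reads by 1 factor. Dividing by each library's step gave whole reads within 0.01 for 100% of values. Depth, RPM and RPKM come from these reads, with GENCODE M21 exon lengths merged over all transcripts of a gene. The deposited tables also hold p-values by the authors. A further 18 columns were not used.

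Within each table, limma 3.58.1 (R 4.3.3) with a mean-variance trend tested log2(normalized count + 1) for genes with a mean of 10 or more, two-sided, with Benjamini-Hochberg adjustment over all tested genes and calls at 0.05. A fold change on this scale understates that of weak genes. Differences between hosts used limma's estimates and standard errors with Welch-Satterthwaite degrees of freedom, adjusted over shared genes. The methods were tested on simulated data. Alternatives were pseudocounts of 0.5 and 5, no filter, a mean of 50, upper-quartile and quantile scaling, no trend, a block for the replicate number, leaving out each library, and, on the recovered reads, DESeq2 1.42.0 and edgeR 4.0.16. Levels are RPM and tests use normalized counts.

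The members and gene lists were chosen with earlier results of these data known. All 7 members, Ddr1, the called genes and the 3 of smallest p in the pathway lists, and the 10 genes most alike were to be named; marker genes and other genes named beside them were chosen after their values were seen. Of the genes to be named, 1 is not reported here, and for the interferon gamma pathway list in Rag1-/- hosts no count of calls is given. March1 was not matched in the culture and Rag1-/- tables. Likeness used log2(RPM + 0.01). No replicate libraries agreed within sampling noise. Python 3.11.15, pandas 2.3.3 and matplotlib 3.10.9 were also used.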

Additional observations from a re-analysis of the deposited data

Results flagged for a closer look

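WT tumour 1 at day 4 in C57BL/6 hosts lay far above the other 3 WT tumours of that table for 3 of the 7 genes. It had 4654 normalized counts of H2-Eb1, 12952 of Cd74 and 174 of Ciita. In each case the gap to the next tumour took up more of the range of the group than the 95% limit of Dixon's test allows for 4 values. In all, 42 groups of values were looked at this way, and chance flags about 1 in 20. The gene values of 1 tumour are not independent, as the 3 genes vary together. The same tumour had the highest leukocyte, macrophage and fibroblast marker sums of its group, at 483, 3319.6 and 4119 RPM, and their part was not tested.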

How the results depend on the processing

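In Rag1-/- hosts 2 of 7 genes were called lower. The count was 1 with no filter, upper-quartile scaling, quantile scaling, edgeR or DESeq2, and 0 for limma without trend; with each library left out it ranged from 0 to 4. With the replicate number as a block it was 1, Cd74, and H2-Ab1 had an adjusted p of 0.0559. Correlations of deviations between same-numbered libraries were at most 0.15 in Rag1-/- hosts, 0.14 at day 4 and 0.45 at day 6. The lowest was below 0 in each table. At day 6, pairs 1 and 4, at 0.45 and 0.35, lay above the highest differently numbered pair, at 0.32. So few pairs cannot show whether a number marks a shared batch. The block called 0 at day 4 and day 6. All 7 log2 changes in Rag1-/- hosts stayed below 0 in all 20 alternatives, with Cd74 between −0.83 and −0.54 and its adjusted p between 0.00922 and 0.0863. No member was called in culture, at day 4, at day 6 or in the difference between hosts under any alternative run.

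At day 6, Ciita changed sign to 0.0182 with edgeR and 0.0195 with DESeq2, and lay between −0.73 and 0.32 with each library left out. With each library left out H2-Aa lay between −0.0538 and 1.23 and H2-DMa between −0.0123 and 0.88, both lowest without antibody-treated tumour 4. The cause was not tested. Over all genes, calls in culture were 39, between 12 and 1055 under other settings and between 2 and 1655 with a library left out; at day 4 they were 5, between 2 and 689, and between 3 and 50; at day 6 they were 0, up to 166 with DESeq2, and up to 5. Few reads limit the chain genes and Ciita in culture. Leave-one-out fits that leave 1 KO culture assume that it varies like the WT cultures.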
